A study of Mus musculus with 6 samples.

Results

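The oncofetal genes described here were *Lin28a*, *Lin28b*, *Igf2bp1*, *Igf2bp2*, *Igf2bp3*, *Hmga1*, *Hmga2*, *Myc*, *Mycn* and *Mycl*. Their rows were found by gene symbol, 10 of the 22032 rows of a mouse expression matrix. The matrix held 6 bulk RNA-seq samples of chondrocytes sorted from the knee, 3 embryonic and 3 adult, all from mice with no engineered allele or treatment stated. Per the study's methods the embryos were at E16.5 and the adults were 2 month old B6 males, with strain and sex of the embryos not stated, while the labels give the embryonic stage as 16.5 weeks. Cells of both stages were sorted as BMPR1B+ after removal of cells carrying CD31, CD45, Ter119 or alkaline phosphatase. How many animals gave each sample is not stated, so the spread between samples may be in part technical, and p-values measure that spread alone. Levels are in TPM, a transcript's share of the library scaled to its length, which can be compared between genes.

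Oncofetal genes are active in the fetus, are low in most adult tissues and return in many tumours. LIN28A and LIN28B are RNA-binding proteins that block the maturation of the let-7 microRNAs. let-7 in turn pairs with messenger RNAs of the Lin28, Igf2bp, Hmga2 and Myc genes and lowers their output, so that the families are joined in a loop. IGF2BP1, IGF2BP2 and IGF2BP3 bind and stabilise messenger RNAs, among them that of the growth factor IGF2. HMGA1 and HMGA2 bend AT-rich DNA, and MYC, MYCN and MYCL are transcription factors that bind DNA as partners of MAX and drive growth.

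The let-7 sequences are shown because a match to them is what most of these genes share. The symbols were chosen without a search for matches, but several of these genes are known let-7 targets. In RefSeq (GRCm38.p6), 11 mature mouse microRNAs at 13 loci had the same seed, bases 2 to 8, printed in capitals in 4 of them.
let-7a-5p: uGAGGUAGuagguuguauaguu
let-7b-5p: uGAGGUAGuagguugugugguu
let-7e-5p: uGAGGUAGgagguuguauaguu
miR-98-5p: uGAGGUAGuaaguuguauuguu
The 3' UTR of each gene was searched on the transcript strand for the complement of that seed, CTACCTC (7mer-m8), for the same letters followed by A, CTACCTCA (8mer), and for TACCTCA (7mer-A1) where no longer match covered it. Of the 10 oncofetal genes 9 held at least 1 match, against 15.1% of 19932 genes with an annotated 3' UTR. *Myc* held none in its UTR of 466 bases. The 15.1% covers UTRs of all lengths. Among genes of like UTR length the share with a match was 51.9% for *Igf2bp1*, 38.5% for *Lin28b*, 28.2% for *Hmga2* and 26.6% for *Lin28a*. It was 22.7% for *Igf2bp3*, 21.5% for *Mycl*, 18.9% for *Igf2bp2*, 12.6% for *Hmga1*, 10.4% for *Mycn* and 6.04% for *Myc*. 1 match of each of the 9 follows, with the matched letters in capitals, positions in GRCm38 and the strand of the gene.
Lin28a (chr4:134005189-134005218, minus strand): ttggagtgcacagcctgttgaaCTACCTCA
Lin28b (chr10:45381022-45381051, minus strand): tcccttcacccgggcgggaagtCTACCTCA
Igf2bp1 (chr11:95961778-95961807, minus strand): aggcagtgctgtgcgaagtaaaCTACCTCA
Igf2bp2 (chr16:22059473-22059502, minus strand): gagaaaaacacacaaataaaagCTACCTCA
Igf2bp3 (chr6:49086787-49086816, minus strand): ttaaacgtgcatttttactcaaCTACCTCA
Hmga2 (chr10:120364224-120364253, minus strand): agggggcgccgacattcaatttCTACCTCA
Hmga1 (chr17:27563270-27563298, plus strand): catcttctcctctgttcacaaaCTACCTC
Mycn (chr12:12936499-12936528, minus strand): ttcacacctaagtactgtaagaaTACCTCA
Mycl (chr4:123001033-123001062, plus strand): cagacttgatcagcatggagcatTACCTCA

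*Hmga2* held 7 matches in 3014 bases, a number reached by 0.107% of the 2802 genes with a 3' UTR within 25% of its length and by 5 genes in all. *Igf2bp1* held 5 in 6337 bases, 3 of them 8mers, and *Lin28b* held 5 in 4445 bases. *Lin28a*, *Igf2bp2* and *Mycn* held 2 each, and *Igf2bp3*, *Hmga1* and *Mycl* 1 each, which 22.7%, 12.6% and 21.5% of genes with UTRs of like length also reached. Several of these genes are known as let-7 targets, so a high number of matches was no independent result. Mature let-7 was not analysed here, and a match is a stretch of letters, not a measured site of binding.

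**Figure D1:**
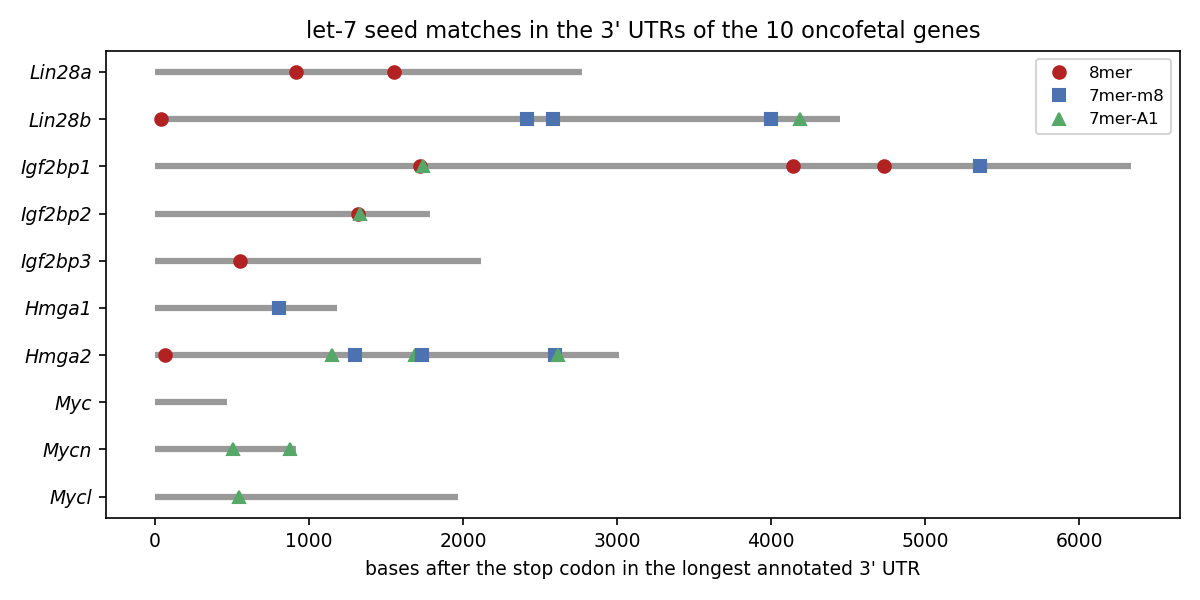
The 3' UTR of each oncofetal gene is drawn as a grey bar to scale, in bases after the stop codon (x axis), with each let-7 seed match as a point by its class. *Hmga2* has 7 matches, *Igf2bp1* and *Lin28b* have 5 each, and *Myc* has none.

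All 6 samples summed to 1000000 TPM, 7314 to 8294 genes stood at 0 in each, and the 20 highest genes took 10.71% to 11.06% of the total in embryonic and 14.58% to 17.7% in adult samples. TPM carries no read number, so the depth behind a value is unknown and a value of 0 has no counting limit. Over all genes, 6 values of 0 had both partners of the stage at 20 TPM or more, so that 0 is not proof of absence. The sorted cells were checked against cartilage markers. *Sox9*, the master regulator of chondrocytes, was at 452, 392 and 465 TPM in embryonic and at 589, 901 and 656 TPM in adult samples. *Col2a1*, the main collagen of cartilage, was at 14154 to 15251 TPM in embryonic and at 3166 to 7084 TPM in adult samples. Of 9 chondrocyte markers 3 were higher and 5 lower in adult samples, against 23.9% and 21.4% of all genes, and some differed widely. *Prg4*, the lubricin gene of the cartilage surface, was at 123, 194 and 162 TPM in embryonic and 23818, 26392 and 25593 TPM in adult samples. *Col9a1* was at 1913 to 1946 TPM in embryonic and 27.2 to 64.3 TPM in adult samples, and *Matn3* at 181 to 234 and 1.11 to 3.65 TPM, both genes of cartilage matrix proteins. On the germ and pluripotent list *Dppa3* and *Dazl* were at 0 in all 6 samples, and *Nanog* was at 0.686 to 2.28 TPM in embryonic and 2.62 to 6.04 TPM in adult samples. Of the skin markers *Krt5* and *Krt14* were at 0 in all 6, and *Krt15* was at 0.265 to 0.356 TPM in embryonic samples and 0 in adult samples.

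Most of the oncofetal genes that were measured above the filter fell between the embryo and the adult. A gene was tested when its mean over the 6 samples was at least 1 TPM, and 8 of the 10 passed. By limma with Benjamini-Hochberg adjustment over all 13125 genes tested, 6 of the 8 were lower in adult samples (*Igf2bp1*, *Igf2bp2*, *Igf2bp3*, *Hmga2*, *Myc* and *Mycn*), against 21.4% of all genes lower and 45.3% called in either direction. By the same test 0 were higher, also 0 at an unadjusted p under 0.05, against 23.9% of all genes. *Igf2bp1*, *Mycn* and *Mycl* passed the filter only through their embryonic values, so their embryonic mean TPM had to be the higher one. *Mycl* was still not called. Of the 5 genes at or above 1 TPM in both stages (*Igf2bp2*, *Igf2bp3*, *Hmga1*, *Hmga2* and *Myc*) 4 were lower. In those 4 every adult value lay below every embryonic value, which was so for 25.9% of all genes, and in *Hmga1* every adult value lay above, which was so for 30.7%. The median difference of these 5 was -1.43 in log2(TPM + 1), adult minus embryonic, and that of all tested genes was 0.16.

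**Figure D2:**
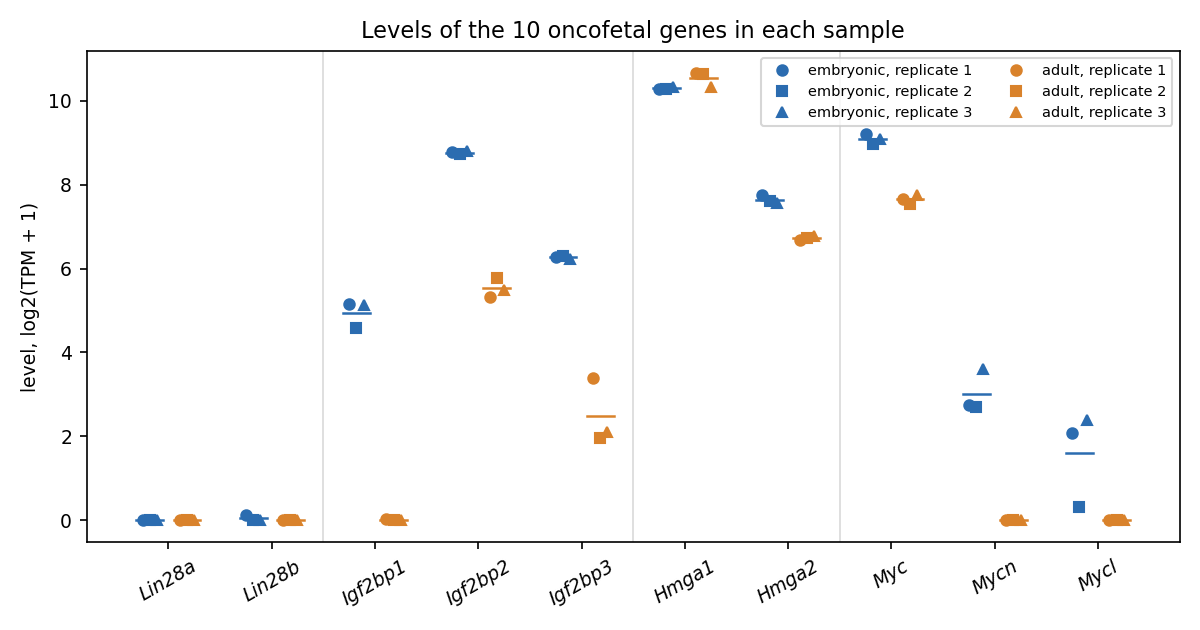
Level of each oncofetal gene in log2(TPM + 1) (y axis) in the 3 embryonic (blue) and 3 adult (orange) samples, with lines at the means. *Hmga1* stays near 10 in all 6 samples, *Igf2bp1*, *Mycn* and *Mycl* lie at or near 0 in the adult, and *Lin28a* and *Lin28b* lie at or near 0 throughout.

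*Lin28a* (ENSMUSG00000050966, chr4:134003330-134018841, minus strand) was listed at 0 in all 6 samples. *Lin28b* (ENSMUSG00000063804, chr10:45376620-45486395, minus strand) was listed at 0.0932 TPM in embryonic sample 1 and at 0 in the other 5 samples. Neither passed the filter, so neither was tested, and no fold is given. At E16.5 the 2 genes that head the loop were thus at or near 0 while the Igf2bp and Hmga genes and *Myc* were high.

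*Trim71*, a let-7 target known from early embryos, was also near 0, at 0, 0 and 0.371 TPM in embryonic and 0, 0.278 and 0 TPM in adult samples. Of 16 genes on the list of Lin28 partners and let-7 processing 15 were tested. Of these 5 were higher in adult samples (33.3%, against 23.9% of all genes) and 2 lower (13.3%, against 21.4%), and the list's median difference was 0.33 against 0.16 for all genes. *Tut4*, the enzyme that LIN28 recruits to add a uridine tail to let-7 precursors, was at 103, 76.5 and 76.5 TPM in embryonic and 36.3, 44.4 and 37.5 TPM in adult samples. Its levels did not overlap and it fell by 1.09 ± 0.182 (SE; adjusted p = 0.00157, limma). *Ago2*, the slicing Argonaute, was the other lower gene. The higher genes were *Ago1*, which binds mature microRNAs, at a difference of 1.59, its cofactor *Tnrc6b* at 1.42, *Dgcr8* and *Drosha*, which cut primary microRNAs in the nucleus, at 0.80 and 0.57, and the exporter *Xpo5* at 0.59. The count of higher genes was 3 under median-of-ratios scaling, under quantile normalization, with no filter, and without embryonic sample 2 or 3 or adult sample 1 or 2, and 2 at an adjusted p under 0.01. *Dicer1*, which releases the mature microRNA, was at 27.6, 20.8 and 22.1 TPM in embryonic and 20.8, 18.9 and 22 TPM in adult samples, overlapping levels that gave an adjusted p of 0.548 (limma).

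Of 4 transcripts that carry let-7 genes 3 were matched and tested, and 1 was higher (33.3%, against 23.9% of all genes). That was *Huwe1*, a ubiquitin ligase gene with let-7 members in an intron, whose messenger RNA rose by 0.54 ± 0.147 (SE; adjusted p = 0.0161, limma). The count of higher host transcripts ran from 0 to 1 over all alternatives. It was 0 with no filter, with eBayes without trend and at an adjusted p under 0.01. *Mir99ahg* was at 11.8, 21 and 7.14 TPM in embryonic and 10.6, 19.6 and 35.5 TPM in adult samples, and *3110039I08Rik* was at 46.8 to 70.2 TPM in embryonic and 44.4 to 61.6 TPM in adult samples. The level of a host transcript is not the level of the mature microRNA.

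*Igf2bp2* (ENSMUSG00000033581, chr16:22059009-22163299, minus strand) was the most abundant of its family at both stages. It was at 434, 420 and 445 TPM in embryonic and at 39.3, 53.6 and 43.8 TPM in adult samples. The stages lay far apart, with means of 433 ± 12.3 and 45.5 ± 7.31 TPM (SD, n = 3 each), a 9.51-fold lower adult level. The difference was -3.23 ± 0.145 in log2(TPM + 1) (SE; adjusted p = 1.2e-06, limma).

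*Igf2bp3* (ENSMUSG00000029814, chr6:49085223-49214957, minus strand) was at 76.6, 78.6 and 74.2 TPM in embryonic and at 9.55, 2.85 and 3.32 TPM in adult samples. Adult sample 1 stood above its partners and far below every embryonic sample. The adult mean was 14.6-fold lower, 5.24 ± 3.74 against 76.5 ± 2.20 TPM (SD, n = 3 each), and the difference was -3.79 ± 0.378 (SE; adjusted p = 9.7e-05, limma). Without adult sample 1 the adult mean was 3.09 TPM, 24.8-fold lower. The exons of *Igf2bp3* share 1529 bases with those of *Malsu1* on the opposite strand, and whether strand was used in counting is not stated. *Malsu1*, a mitochondrial ribosome assembly gene, was at 10.5, 8.11 and 9.14 TPM in embryonic and 12.2, 10.1 and 24.9 TPM in adult samples, so the adult *Igf2bp3* level lay below that of its neighbour and is uncertain.

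*Igf2bp1* (ENSMUSG00000013415, chr11:95957163-96005940, minus strand) was at 34.5, 22.9 and 33.8 TPM in embryonic samples. In adult samples it was listed at 0.0199, 0 and 0 TPM. The difference in log2(TPM + 1) was -4.94 ± 0.378 (SE; adjusted p = 2.3e-05, limma), a value set by the pseudocount, and it was -8.14 with a pseudocount of 0.1. *Igf2bp1* passed the filter only through its embryonic values, so its p-value is no independent support for the difference. The paralogs thus differed in what was left in the adult, from 45.5 TPM on average for *Igf2bp2* to 0 in 2 of 3 samples for *Igf2bp1*.

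Summed over the family, Igf2bp transcripts were at 546, 522 and 553 TPM in embryonic and 48.9, 56.4 and 47.1 TPM in adult samples, 10.6-fold lower on the means. *Igf2bp2* made up 80.2% ± 0.515 of the embryonic and 89.4% ± 7.88 of the adult sum (SD, n = 3 each; exact two-sided permutation p = 0.3). The adult shares were 80.4%, 94.9% and 92.9%, so the lowest fell within the embryonic range of 79.6% to 80.6%. No permutation test of 3 samples against 3 can go under p = 0.1.

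**Figure D3:**
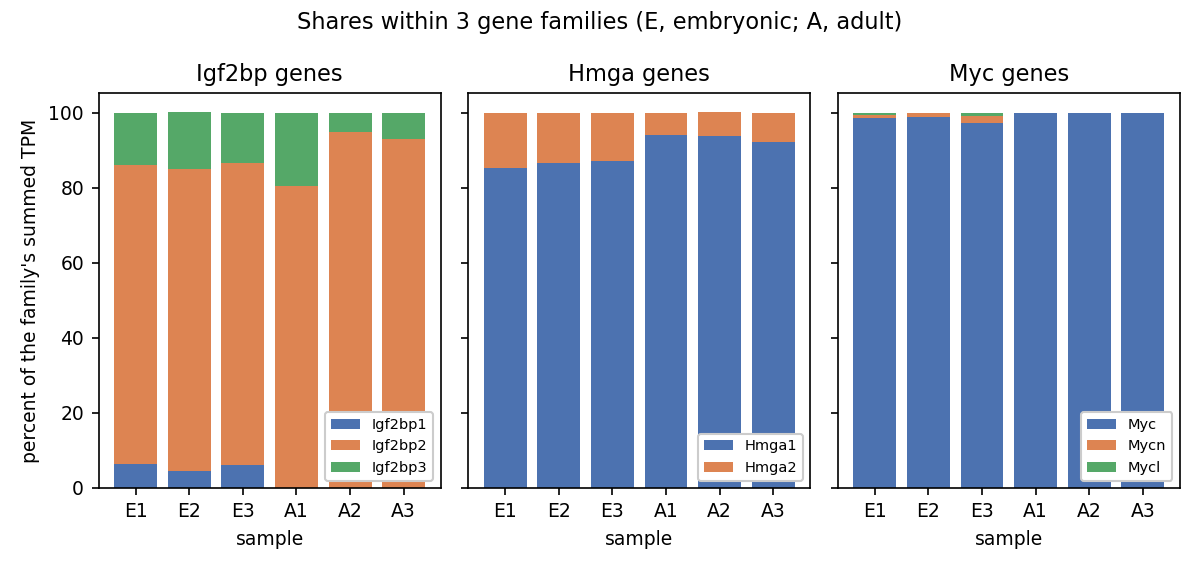
Percent of the summed TPM of the Igf2bp, Hmga and Myc families (y axis) taken by each gene in embryonic (E) and adult (A) samples 1 to 3 (x axis). *Igf2bp1* disappears from the adult bars, *Hmga2* goes from 12.8% to 14.8% down to 5.95% to 7.76%, and *Myc* fills the Myc bars.

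Of 9 known IGF2BP client transcripts 8 were matched and 7 tested, of which 3 were lower in adult samples (42.9%, against 21.4% of all genes). These clients were listed with earlier results of these data known, so the share is a description. *Igf2*, the growth factor for which the family is named, was at 12002, 11536 and 12131 TPM in embryonic and 26.5, 56.8 and 37.6 TPM in adult samples. That was the steepest fall on the list, a difference of -8.24 ± 0.233 (SE; adjusted p = 1.1e-07, limma). *Gli1*, a target and effector of hedgehog signalling, fell by 3.20, and *Cd44*, the hyaluronan receptor, fell by 1.51. *Actb*, the client for which IGF2BP1 was described as a zipcode-binding protein, was at 4174, 4291 and 4503 TPM in embryonic and 4814, 3955 and 3557 TPM in adult samples, with no call (adjusted p = 0.665, limma). The list's median difference was -0.08 and changed sign with the scaling, from -0.34 to 0.26. *H19* was not analysed here.

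*Hmga1* (ENSMUSG00000046711, chr17:27556497-27563674, plus strand) was the highest of the 10 genes at both stages, above 99.5% of all genes in the embryonic and 99.8% in the adult mean. It was at 1243, 1249 and 1277 TPM in embryonic and at 1618, 1611 and 1289 TPM in adult samples. The ranges did not overlap, but adult sample 3 stood next to the embryonic samples. The difference was 0.25 ± 0.128 (SE; 95% interval -0.04 to 0.54; adjusted p = 0.138, limma), and no call was made. Without adult sample 3 the difference was 0.36 with an adjusted p of 0.0441, and under quantile normalization it was 0.57 with an adjusted p of 0.00643 (limma).

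*Hmga1b*, a gene on another chromosome whose coding sequence matched that of *Hmga1* at 98.9% of bases, could share reads with it. It was listed at 0, 0 and 0.542 TPM in embryonic and 1.5, 0 and 1.65 TPM in adult samples, small beside *Hmga1*. *Hmga1* also shares 102 exonic bases with *AI413582* on the opposite strand, which was at 17.2, 10.9 and 11.6 TPM in embryonic and 43.8, 42.3 and 54.1 TPM in adult samples.

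*Hmga2* (ENSMUSG00000056758, chr10:120361275-120476469, minus strand) was at 215, 193 and 188 TPM in embryonic and at 102, 106 and 108 TPM in adult samples. The stages were well apart and the adult values tight, at 105 ± 3.07 against 199 ± 14.5 TPM (SD, n = 3 each). The adult level was 1.89-fold lower, a difference of -0.91 ± 0.123 (SE; adjusted p = 4.9e-04, limma). *Hmga2* remained above 91.9% of all genes in the adult mean. As a share of Hmga transcripts it went from 13.7% ± 0.992 to 6.62% ± 0.996 (SD, n = 3 each), with no overlap (exact two-sided permutation p = 0.1, the smallest the design allows).

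The summed Hmga level was 1458, 1443 and 1465 TPM in embryonic and 1720, 1717 and 1397 TPM in adult samples. The adult samples lay on both sides of the embryonic range (exact two-sided permutation p = 0.4). Other high mobility group genes are chromatin proteins without the AT-hook that gives HMGA its name. Of 7 such genes 6 were lower, against 21.4% of all genes. On the list of 9 that adds the INK4 genes *Cdkn2a* and *Cdkn2b*, 0 were higher by limma with adjustment and 1, *Cdkn2b*, at an unadjusted p under 0.05. *Hmgn2*, a nucleosome-binding protein, went from 484, 526 and 529 to 93.1, 36.8 and 30.4 TPM, a difference of -3.41. *Hmgb2* fell by 2.65 and *Hmgb3* fell by 1.73, both genes of DNA-bending proteins. *Cdkn2a*, the INK4A and ARF gene that HMGA2 is known to hold down in stem cells, was listed at 0 in every embryonic sample, and its adult values were 0, 4.79 and 3.78 TPM (adjusted p = 0.0955, limma). Its neighbour *Cdkn2b* was at 2.45, 6.07 and 2.71 TPM in embryonic and 10.7, 13 and 5.05 TPM in adult samples (adjusted p = 0.0765, limma).

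*Myc* (ENSMUSG00000022346, chr15:61985391-61990374, plus strand) was at 586, 505 and 540 TPM in embryonic and at 201, 186 and 215 TPM in adult samples. Every adult value was below every embryonic value, with means of 544 ± 40.6 and 201 ± 14.9 TPM (SD, n = 3 each). The adult level was 2.71-fold lower, a difference of -1.43 ± 0.120 (SE; adjusted p = 3.8e-05, limma), and was still above 96.2% of all genes. *Myc* is itself an immediate early gene that tissue digestion can raise. On a list of 10 such genes 3 were higher and 3 lower in adult samples (30% each, near the 23.9% and 21.4% of all genes), with a median difference of 0.09. The transcription factor genes *Atf3* (-2.56), *Fosb* (-1.29) and *Jun* (-0.93) were the lower ones, and the phosphatase gene *Dusp1*, *Junb* and *Ier3* rose by 1.04, 0.75 and 0.63. The part of digestion in the *Myc* level was not tested.

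*Mycn* (ENSMUSG00000037169, chr12:12936093-12941914, minus strand), the paralog used by embryonic limb and neural progenitors, was at 5.70, 5.45 and 11.1 TPM in embryonic samples and listed at 0 in all 3 adult samples. The difference was -3.01 ± 0.461 (SE; adjusted p = 9.9e-04, limma), which depends on the pseudocount, and no fold is given. *Mycl* (ENSMUSG00000028654, chr4:122995652-123002485, plus strand) was at 3.23, 0.245 and 4.26 TPM in embryonic samples and listed at 0 in all 3 adult samples. Embryonic sample 2 stood near the adult samples, and the difference of -1.60 ± 0.631 did not pass the threshold (SE; adjusted p = 0.0672, limma). Without that sample the adjusted p was 0.0128, and with a pseudocount of 0.1 it was 0.0379 (limma). *Mycn* and *Mycl* passed the filter only through their embryonic values, so their p-values are no independent support for a difference. *Myc* made up 98.2% ± 0.863 of the embryonic Myc family sum (SD, n = 3) and 100% of it in every adult sample, so the low paralogs hardly entered the sum.

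**Figure D4:**
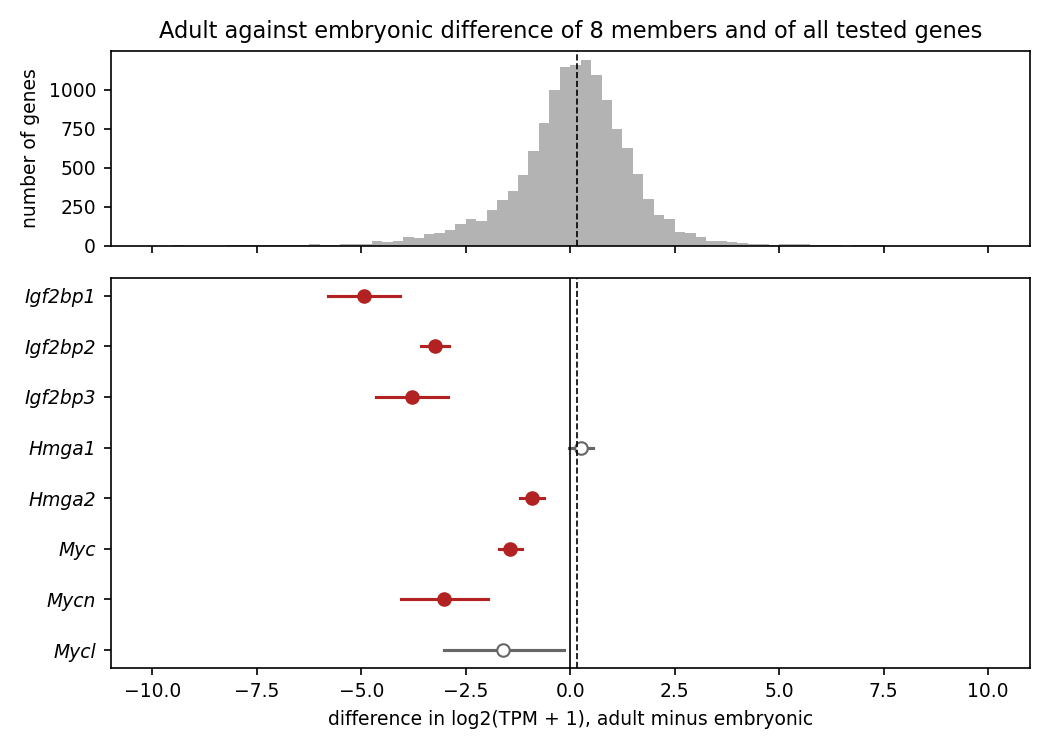
Histogram of the adult minus embryonic difference in log2(TPM + 1) of 13125 tested genes (top), and the difference of 8 oncofetal genes with 95% intervals, unadjusted (bottom). Filled points passed an adjusted p under 0.05, the dashed line is the median of all genes at 0.16, and *Hmga1* is the 1 point to the right of 0.

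*Max*, which every MYC protein needs to bind DNA, was at 79.1, 94.7 and 64.3 TPM in embryonic and 92.7, 123 and 121 TPM in adult samples, a difference of 0.50 ± 0.187 (SE) that did not pass the threshold (adjusted p = 0.0563, limma). Of 10 genes of the MAX network 2 were higher and 2 lower (20% each, near the 23.9% and 21.4% of all genes), with a median difference of 0.00. The count of lower genes was 1 without embryonic sample 2 or 3 and at an adjusted p under 0.01, and ran from 1 to 3 over all alternatives. That of higher genes was 1 without embryonic sample 1 or adult sample 2 or 3 and ran from 1 to 4 over all alternatives. *Mxd1*, a repressor that competes with MYC for MAX, fell from 61.8, 59.3 and 88.9 TPM to 10.5, 17.9 and 6.77 TPM, a difference of -2.55. *Mlxip*, a glucose sensor, fell by 0.57, its partner *Mlx* rose by 0.76, and *Mga*, a large MAX-binding repressor, rose by 0.44. Of 8 genes that control the stability of MYC protein 2 were lower (25%, against 21.4% of all genes) and 1 higher (12.5%, against 23.9%), or 2 higher without adult sample 3. Over all alternatives 2 to 3 were lower and 0 to 2 higher. *Cip2a*, which shields MYC from dephosphorylation, fell by 2.54, and *Skp2*, a ubiquitin ligase subunit, fell by 1.47, while the ligase *Huwe1* rose.

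MYC drives ribosome production, and 26 of its target genes for ribosome biogenesis and growth were all tested. Of these 11 were lower (42.3%, against 21.4% of all genes) and 2 were higher (7.69%, against 23.9%), with a median difference of -0.27 against 0.16 for all genes. As the list was chosen with earlier results of these data known, these shares are a description. With no filter on low values 7 were lower, and rescaled without the 20 highest genes 4 were higher. *Wdr43* fell from 165, 178 and 173 TPM to 73.5, 69.0 and 94.1 TPM, a difference of -1.13, and *Nolc1* from 215, 210 and 217 TPM to 115, 89.6 and 93.2 TPM, a difference of -1.11. Both encode nucleolar proteins of ribosome assembly. *Npm1*, the abundant nucleolar chaperone, fell by 1.08 (adjusted p = 0.00131, limma). *Cad*, the enzyme that opens pyrimidine synthesis, rose from 31.4, 29.6 and 38.0 TPM to 76.4, 62.0 and 71.7 TPM, by 1.07, and *Utp20* rose by 0.92. *Odc1*, a textbook MYC target, was at 192, 221 and 218 TPM in embryonic and 214, 197 and 198 TPM in adult samples, with no call (adjusted p = 0.753, limma). It was picked out after its values were seen.

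Of 20 let-7 target genes outside the 10 oncofetal genes 18 held a seed match and 19 were tested. Of these 8 were lower (42.1%, against 21.4% of all genes) and 1 higher (5.26%, against 23.9%), with a median difference of -0.44. This list too was chosen with earlier results of these data known, so its shares are a description. Among the 17 tested with a match 6 were lower, against 22.8% of the 2133 tested genes with a match outside the oncofetal genes. The count of lower genes was 5 without any 1 of the embryonic samples or adult sample 1, and rescaled without the 20 highest genes. It was also 5 with a replicate block and at an adjusted p under 0.01, and 5 to 8 over all alternatives. *Ccnd1*, the G1 cyclin, fell from 78.7, 60.3 and 73.1 TPM to 8.69, 4.49 and 3.51 TPM, a difference of -3.52. *Plag1*, a zinc finger activator of *Igf2*, fell by 2.07. The higher gene was *Nras*, at a difference of 0.73 (adjusted p = 0.0347, limma), which was not called without embryonic sample 1 or 2 or adult sample 1 or 3. It was also not called under quantile normalization, under median-of-ratios scaling or with no filter. Among tested genes with a 3' UTR other than the oncofetal genes, 22.8% of 2133 genes with a let-7 match and 21.6% of 10563 without were lower in adult samples. Genes with at least 1 8mer were lower in 22.1% of 461 cases, and those with 3 or more matches in 22.4% of 76. Their UTRs were longer, with medians of 2474 and 4646 bases against 992 bases for genes without a match. Higher in adult samples were 21.8% of genes with a match, 24.5% without, 22.8% with an 8mer and 15.8% with 3 or more matches. The median differences were 0.08, 0.15, 0.12 and 0.0 in that order. The part of let-7 in these shares was not tested.

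**Figure D5:**
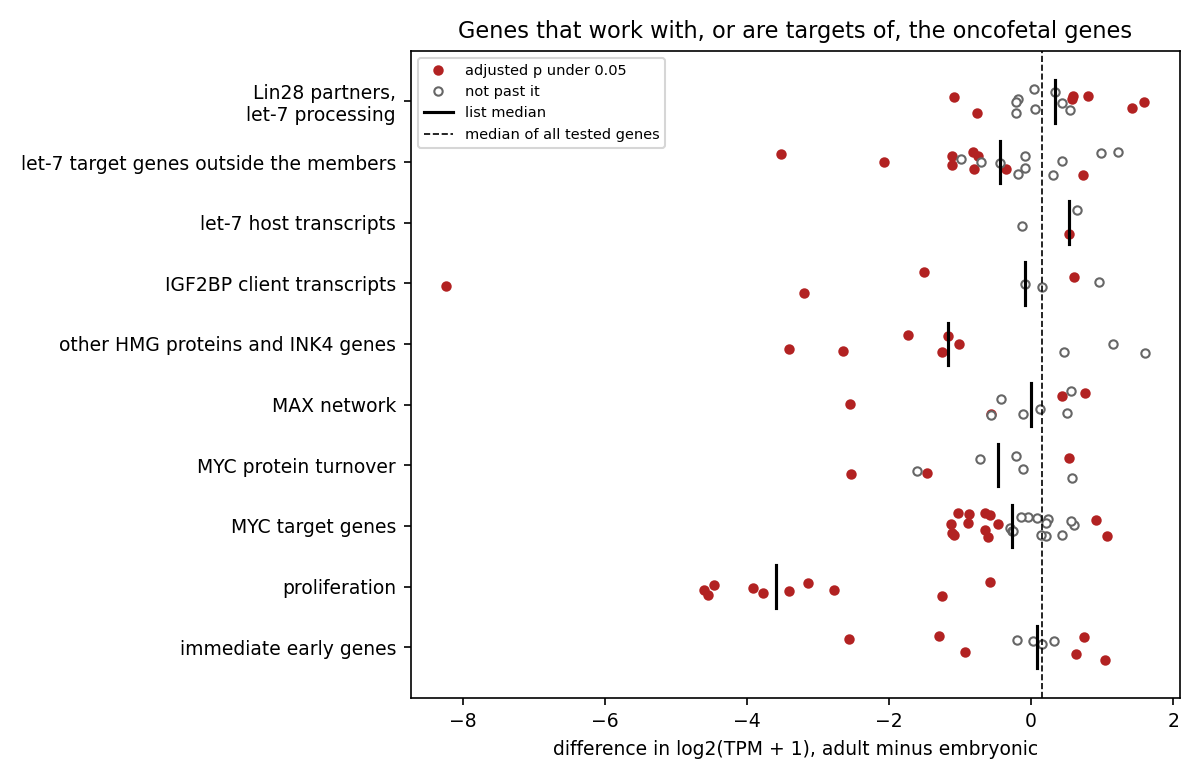
Adult minus embryonic difference in log2(TPM + 1) (x axis) of each tested gene on 10 lists (rows), red where the adjusted p was under 0.05, with the list median as a black bar and the median of all genes as a dashed line at 0.16. The proliferation list lies to the left, and the MAX network and immediate early genes lie on both sides.

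Other features of the samples moved with the oncofetal genes. All 10 proliferation genes were lower, against 21.4% of all genes, with a median difference of -3.59. *Mki67*, which marks cycling cells, was at 101, 83.3 and 101 TPM in embryonic and 2.05, 1.32 and 8.62 TPM in adult samples, *Aurkb* fell by 4.60 and *Cdk1* fell by 4.46. All 4 tendon and fibroblast markers were lower too, against the same 21.4% of all genes. Their summed level was 5234 to 6332 TPM in embryonic and 195 to 662 TPM in adult samples. *Col1a1*, the type I collagen gene, made up most of that sum, and *Scx*, which defines tendon cells, was at 44.2, 41.3 and 32.6 TPM in embryonic and 0, 4.59 and 0 TPM in adult samples. The summed osteoblast markers were at 11.5 to 46.4 TPM in embryonic and 252 to 396 TPM in adult samples, with *Ibsp* and *Bglap* higher and *Dmp1* lower. The erythroid, leukocyte, endothelial and muscle lists summed to at most 104, 44.9, 23 and 10.9 TPM in any sample. The part of cycling cells and of other cell types in the differences above was not tested, and in bulk samples fewer cells of a type and less RNA per cell cannot be told apart.

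Within a stage the levels followed a clear order. In embryonic samples it was *Hmga1*, *Myc*, *Igf2bp2*, *Hmga2*, *Igf2bp3*, *Igf2bp1*, *Mycn*, *Mycl* and then the Lin28 genes, and only the ranges of *Lin28b* and *Lin28a* overlapped between neighbours. In adult samples it was *Hmga1*, *Myc*, *Hmga2*, *Igf2bp2* and *Igf2bp3*, each apart from the next, with the other 5 at or near 0 and not separable. *Hmga2* and *Igf2bp2* changed places between the stages.

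For each tested gene the 3 genes with the most similar levels were taken by Euclidean distance in log2(TPM + 1) over the 6 samples, as a description with no test. *Hmga2* lay closest to *Usp22*, a deubiquitinase of the SAGA complex, at a distance of 0.19, then to *Nsd3* and *Cand1*. *Myc* lay closest to *Dek*, a chromatin protein, at 0.37, to the cap-binding factor *Eif4e* at 0.41 and to the integrin *Itga5*. *Igf2bp3* lay next to *Glipr2* at 0.52 and to *Ccnd1* at 0.65, and *Igf2bp2* next to *Tuba1a*, *Sulf2* and *Efhd2*. *Igf2bp1* lay next to *Gap43*, a neuronal growth protein gene, at 0.45, and to *Igf2os* at 0.50, which was at 26.5, 21.8 and 26.7 TPM in embryonic and 0 in all adult samples. *Hmga1* had the collagen VI genes *Col6a3* and *Col6a1* and the translation factor *Eif4g2* nearest. *Mycn* had *Adgrd1*, *Adamts19* and *Ctsc*, and *Mycl* had *Lrrtm3*, *Tex52* and *Apol6*. Genes at 0 in the adult share that pattern with many others.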

How the data were processed

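RNA-seq was measured in 6 mouse samples, 3 embryonic and 3 adult. Per the study's methods libraries were made with the Nugen Ovation V2 and Kapa LTP kits, where the labels name a Kapa mRNA-Seq kit. By the methods the authors mapped reads to GRCm38 with RefSeq annotation and estimated levels with RSEM (version not given in the sources used here). They deposited log2(TPM + 1) per gene, in rows that carry Ensembl identifiers. Here the deposited log2 values were taken back to TPM where levels are given.

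The set of oncofetal genes, taken by symbol, and the gene lists were chosen with earlier results of these data known. Shares of a list set beside those of all genes are therefore descriptions and no test of the list. Identifiers were matched to symbols in GENCODE M21: 21902 had a symbol, 130 had none, and all 10 oncofetal genes were found. *H19* and 1 let-7 host transcript were not matched.

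For genes whose mean over the samples reached 1 TPM, limma 3.58.1 was fitted to log2(TPM + 1) in R 4.3.3 (lmFit, eBayes with trend), with stage as the only term and Benjamini-Hochberg adjustment. Called genes had an adjusted p under 0.05. EBSeq, named in the methods, needs counts and was not used. Family shares were compared by exact permutation over samples (scipy 1.17.1). TPM keeps no depth, so precision rests on 3 samples per stage. The fit was tested on simulated data.

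By rule all 10 genes were named, with the 3 steepest called genes of each list, *Igf2*, *Max*, *Trim71*, *Dicer1*, *Mki67*, the marker genes and the 3 nearest genes by level. Other genes, mostly those of counts of 5 or fewer, were named after their values were seen, and some genes that the rule would name are not reported here. 3' UTRs were the longest annotated in GENCODE M21, and coding copies were sought with blastn 2.17.0 at 95% identity over 90% of the coding sequence.

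Alternatives were a pseudocount of 0.1, no filter, a filter of 5 TPM, eBayes robust or without trend, median-of-ratios scaling, TPM rescaled after leaving out the 20 highest genes, quantile normalization, a replicate block, an adjusted p under 0.01 and leaving out each sample.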

Additional observations from a re-analysis of the deposited data

How the results depend on the processing

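The 8 tested oncofetal genes were read under up to 16 alternatives each, 126 results in all. Of these 122 kept their direction and their side of the threshold, 4 newly passed it and 0 lost it or changed sign. The adjusted p under 0.01 was read from the main fit, so no direction could change there. The direction of *Igf2bp1*, *Mycn* and *Mycl* was set by the filter. The count of lower genes was 6 except with a pseudocount of 0.1 and without embryonic replicate 2, where *Mycl* made it 7, and with a filter of 5 TPM, which *Mycn* and *Mycl* did not pass, where it was 5. The count of higher genes was 1 in place of 0 under quantile normalization and 1 without adult replicate 3, in both *Hmga1*, and 0 to 1 over all samples left out. The other 2 new calls were of *Mycl*, with a pseudocount of 0.1 and without embryonic replicate 2. With an adjusted p under 0.01 the count over all genes was 3718 in place of 5949. Leaving out each sample gave 4603 to 5550, where a stage with 2 samples shares the pooled spread. Samples of the same number did not deviate together over all genes (correlations of -0.009, -0.017 and -0.022). That gave no sign of pairing by number, but handling shared by number was not tested. A replicate block gave 5430 calls over all genes and 6 lower oncofetal genes.

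The scaling moved the median difference of all genes from 0.16 to 0.03 with median-of-ratios scaling and to 0.25 without the 20 highest genes. The share of Lin28b within its pair could not be computed in the adult, where both genes were at 0. With 3 samples a stage and no depth, a small change of a gene near 0 cannot be resolved, and levels at 0 in the adult give no fold.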
